A study of Homo sapiens with 28 samples.

Results

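GPR176, VAT1L, MGAT4C, TRPC4, IDO1, PMEL and ADAMTS19 are 7 genes of unrelated function whose RNA was much higher in human embryonic stem (ES) cell lines than in embryonal carcinoma (EC) cell lines. They were chosen by that difference, in one or both growth conditions, from 14220 genes with a named transcript cluster on Affymetrix Human Exon 1.0 ST arrays, so their EC-ES values are given as a description with no test. Each of the 7 genes had 1 transcript cluster (of 22011), and together they had 131 probesets (of 287329). A transcript cluster value summarises the probesets of a gene, and a probeset covers about one exon or a piece of it. All values are the deposited log2 values, so a difference of 1 is a doubling.

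ES lines come from embryos and EC lines from germ cell tumours, and all cells were sorted for the pluripotency antigen SSEA3 before RNA was taken. H9, H14, Shef3, Shef5, Shef6 and Shef7 are the ES lines (n = 6), and they grew on mouse embryo fibroblast feeders inactivated with mitomycin C, in knock-out DMEM containing serum replacement plus FGF. TERA1, NTERA2, NCCIT, 833KE and 2102Ep are the EC lines (n = 5), grown on plastic in high-glucose DMEM with fetal calf serum. NTERA2, 2102Ep and 833KE (n = 3) were also grown on the feeders in the ES medium. Every array is a different line or growth condition, so the SD within a group is the spread between lines. EC on plastic differs from ES in cell type and in growth condition at once, and EC on feeders differs in cell type under 1 growth condition.

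The array medians at gene level lay between 6.19 and 6.39, and pairs of arrays correlated across clusters with r from 0.931 to 0.984. The mean of 8 pluripotency clusters, among them LIN28A, DNMT3B and SALL4, was 9.70 to 10.81 in the ES lines, 9.79 to 11.13 in EC on plastic and 9.83 to 10.75 in EC on feeders. In 2 arrays 1 of these markers, ZFP42, lay below the array's 25th percentile. POU5F1, NANOG and SOX2 are not among the 8 and were read from their probesets. NANOG's 2 probesets were 9.41 to 11.57 and 7.34 to 9.75 in ES, below 11.58 to 12.85 and 9.76 to 11.85 in EC on plastic. In EC on feeders they were 11.23 to 12.43 and 8.92 to 11.47. The POU5F1 and SOX2 probesets overlapped between ES and either EC group. The number of arrays limits the precision, and detection p-values were not used, so a dim value has no known distance from background. The labels give each array a code. H14, Shef5 and NTERA2 and 2102Ep on feeders have the earlier codes (up to 13), and the 10 others the later ones (from 17).

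GPR176 is an orphan G-protein-coupled receptor known from the circadian clock, and TRPC4 is a cation channel of the plasma membrane that opens downstream of receptors and lets calcium in. VAT1L resembles the vesicle amine transport protein VAT1 and the quinone oxidoreductases. MGAT4C belongs to the enzymes that add branches to N-linked glycans in the Golgi. IDO1 is the dioxygenase that starts the breakdown of tryptophan to kynurenine, is induced by interferon gamma and is known for restraining T cells. PMEL forms the fibrils on which melanin is laid down in melanosomes, and ADAMTS19 is a secreted metalloprotease with thrombospondin repeats.

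The RefSeq promoter windows (GRCh38.p14) cover 5 of the 7 genes with 8 start sites, but not IDO1 and PMEL. The 150 bases before a start site are shown for genes that share the ES-high pattern but differ in CG content. Capitals mark CG dinucleotides, the sites of DNA methylation, and each sequence runs 5′ to 3′ on the gene's strand. The windows are the outer start of GPR176 (chr15:39920267-39920416, minus strand), TRPC4 (chr13:37869773-37869922, minus strand), VAT1L (chr16:77788414-77788563, plus strand), ADAMTS19 (chr5:129460148-129460297, plus strand) and the outermost start of MGAT4C (chr12:86839001-86839150, minus strand).
GPR176: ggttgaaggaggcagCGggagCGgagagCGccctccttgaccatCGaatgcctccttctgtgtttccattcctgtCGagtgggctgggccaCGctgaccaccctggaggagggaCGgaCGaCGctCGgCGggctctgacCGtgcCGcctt
TRPC4: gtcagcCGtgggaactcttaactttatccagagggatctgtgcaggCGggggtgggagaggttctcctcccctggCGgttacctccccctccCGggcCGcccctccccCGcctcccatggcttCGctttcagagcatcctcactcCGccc
VAT1L: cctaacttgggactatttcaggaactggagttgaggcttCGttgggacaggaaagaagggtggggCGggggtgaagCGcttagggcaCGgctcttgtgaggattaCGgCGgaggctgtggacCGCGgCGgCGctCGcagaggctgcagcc
ADAMTS19: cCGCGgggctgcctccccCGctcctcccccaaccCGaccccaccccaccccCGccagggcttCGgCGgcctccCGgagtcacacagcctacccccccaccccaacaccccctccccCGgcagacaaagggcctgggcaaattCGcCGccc
MGAT4C: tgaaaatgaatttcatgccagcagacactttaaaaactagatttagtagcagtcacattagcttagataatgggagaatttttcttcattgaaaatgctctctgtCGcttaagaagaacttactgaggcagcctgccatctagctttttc
Over the 250 bases before the start, these windows held 23 CG dinucleotides in GPR176, 17 in TRPC4, 16 in VAT1L, 17 in ADAMTS19 and 1 in MGAT4C. The median over 35116 windows of the same length was 11, and the outer GPR176 window was above 74.2% of them and MGAT4C above 6.06%. The other MGAT4C starts held 1 and 2, and the inner start of GPR176 held 1. Of the motifs searched on both strands, TAATCC (OTX2 and GSC type) was 51 bases before the VAT1L start and is in 5.62% of all windows. CAGACA (SMAD type, in 13.6%) was 31 bases before the ADAMTS19 start and 129 before the outermost MGAT4C start. GAAANNGAA (interferon response type, in 6.88%) was 29 bases before the TRPC4 start and 149 before the same MGAT4C start, and CATTGT (SOX type, in 9.29%) was in the inner GPR176 window. ATGCAAAT (octamer, in 1.63%), GGTGTGA (T-box, in 2.76%), CATGTG (E-box read by MITF, in 9.42%) and TATAAA (core promoter box, in 10.7%) had no match in the 8 windows.

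**Figure D1:**
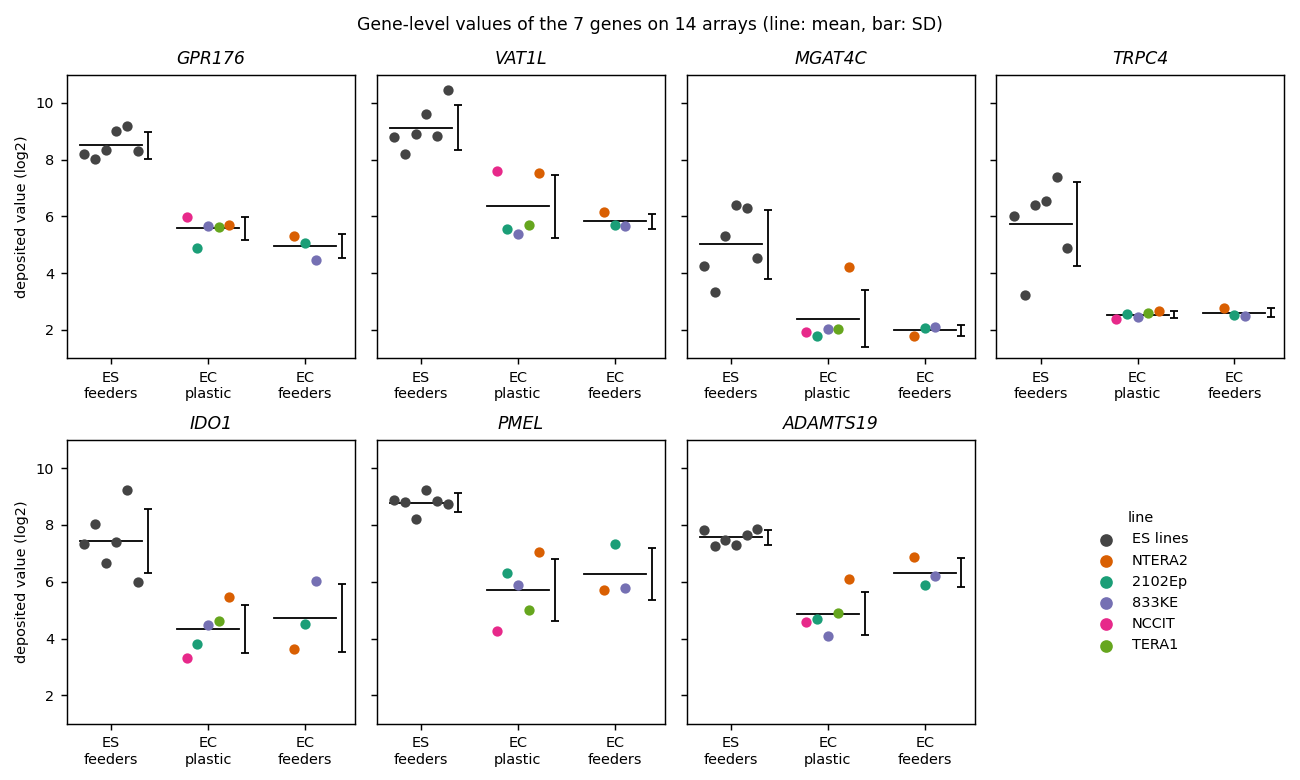
Deposited gene-level values (log2, y axis) of the 7 genes on the 14 arrays, in the 3 groups on the x axis. Each point is 1 array, EC lines are coloured by line, horizontal lines are group means and bars are SDs. The ES points lie above all 8 EC points for GPR176, VAT1L, TRPC4, PMEL and ADAMTS19, while 1 EC array reaches into the ES range for MGAT4C and for IDO1.

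GPR176 had the widest separation. In the ES lines it ranged from 8.02 in Shef5 to 9.19 in H9, with a median of 8.33. On plastic it was 5.99 in NCCIT, 4.89 in 2102Ep, 5.68 in 833KE, 5.63 in TERA1 and 5.70 in NTERA2. On feeders it was 5.31 in NTERA2, 5.08 in 2102Ep and 4.48 in 833KE. The highest EC array lay 2.03 below the lowest ES line. The means were 8.52 ± 0.47 (SD, n = 6) in ES, 5.58 ± 0.41 (SD, n = 5) in EC on plastic and 4.96 ± 0.43 (SD, n = 3) in EC on feeders, which is 7.66-fold lower on plastic and 11.8-fold lower on feeders.

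TRPC4, the calcium-permeable channel, had the widest spread among ES lines and the narrowest among EC lines. It was 7.38 in H9, 6.55 in Shef3, 6.39 in Shef6, 6.02 in H14, 4.88 in Shef7 and 3.22 in Shef5. On plastic it was 2.38 in NCCIT, 2.56 in 2102Ep, 2.46 in 833KE, 2.60 in TERA1 and 2.68 in NTERA2. On feeders it was 2.78 in NTERA2, 2.54 in 2102Ep and 2.50 in 833KE. All 8 EC arrays lay below their array's 25th percentile of clusters, which was between 4.51 and 4.59, and so did the lowest ES line. The ES mean of 5.74 ± 1.48 (SD, n = 6) stood against 2.54 ± 0.12 (SD, n = 5) on plastic and 2.61 ± 0.15 (SD, n = 3) on feeders, differences of -3.20 and -3.13. Shef5 alone lay near the EC arrays, 0.44 above the highest of them.

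VAT1L was 10.46 in Shef7, the highest ES line, and 8.19 in Shef5, the lowest, with a median of 8.86. On plastic the EC lines stood at different levels, with 7.60 in NCCIT and 7.52 in NTERA2 against 5.57 in 2102Ep, 5.40 in 833KE and 5.69 in TERA1. On feeders VAT1L was 6.15 in NTERA2, 5.69 in 2102Ep and 5.67 in 833KE. The ES and EC arrays did not overlap, with a gap of 0.58 to the highest EC array. The ES mean was 9.13 ± 0.79 (SD, n = 6), 6.85-fold above EC on plastic (6.36 ± 1.11, SD, n = 5) and 9.83-fold above EC on feeders (5.83 ± 0.27, SD, n = 3).

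MGAT4C, the glycan-branching enzyme relative, was 6.40 in Shef3, 6.31 in H9, 5.32 in Shef6, 4.54 in Shef7, 4.25 in H14 and 3.33 in Shef5. On plastic 4 EC lines lay between 1.80 and 2.04, and NTERA2 stood apart at 4.21. NTERA2 on plastic was therefore above the lowest ES line, and the groups overlapped. On feeders NTERA2 was at 1.77, with 2102Ep at 2.08 and 833KE at 2.11, all below the ES range. The ES mean was 5.02 ± 1.21 (SD, n = 6) against 2.40 ± 1.01 (SD, n = 5) on plastic and 1.99 ± 0.19 (SD, n = 3) on feeders, and all 8 EC arrays and 3 ES arrays lay below the array's 25th percentile.

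IDO1, the tryptophan-degrading enzyme, was 9.23 in H9, 8.04 in Shef5, 7.40 in Shef3, 7.33 in H14, 6.66 in Shef6 and 5.99 in Shef7. On plastic it was 3.30 in NCCIT, 3.80 in 2102Ep, 4.48 in 833KE, 4.62 in TERA1 and 5.47 in NTERA2, all below the ES lines. On feeders it was 3.64 in NTERA2 and 4.51 in 2102Ep, and 833KE at 6.02 passed the lowest ES line. The ES mean of 7.44 ± 1.12 (SD, n = 6) was 8.63-fold above EC on plastic (4.33 ± 0.83, SD, n = 5) and 6.59-fold above EC on feeders (4.72 ± 1.20, SD, n = 3).

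PMEL, the melanosome fibril protein, ranged among the ES lines from 8.19 in Shef6 to 9.24 in Shef3, with a median of 8.83. The EC lines were at 4.25 in NCCIT, 5.01 in TERA1, 5.89 in 833KE, 6.30 in 2102Ep and 7.03 in NTERA2 on plastic. On feeders it was 7.32 in 2102Ep, 5.77 in 833KE and 5.72 in NTERA2. No EC array reached the ES range. The ES mean of 8.79 ± 0.34 (SD, n = 6) was 8.54-fold above EC on plastic (5.70 ± 1.09, SD, n = 5) and 5.75-fold above EC on feeders (6.27 ± 0.91, SD, n = 3).

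ADAMTS19, the secreted protease, varied least among the ES lines, from 7.27 in Shef5 to 7.85 in Shef7 with a median of 7.56. On plastic it was 4.58 in NCCIT, 4.70 in 2102Ep, 4.07 in 833KE, 4.91 in TERA1 and 6.10 in NTERA2. On feeders the same lines were nearer to ES, at 6.87 in NTERA2, 5.88 in 2102Ep and 6.20 in 833KE, still without overlap. The ES mean of 7.56 ± 0.25 (SD, n = 6) was 6.46-fold above EC on plastic (4.87 ± 0.75, SD, n = 5). It was 2.37-fold above EC on feeders (6.32 ± 0.50, SD, n = 3), the smallest difference among the 7 genes on feeders. On plastic the smallest was that of MGAT4C, 6.15-fold.

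In all, 6 of the 7 genes had no overlap between ES and EC on plastic, 6 between ES and EC on feeders, and 5 between ES and all EC arrays. Over all clusters the lowest ES array was above every EC array on plastic in 1.52%, on feeders in 3.08% and in both conditions in 0.536%. These shares are given for scale only, since the genes were selected on the same values. NTERA2 on plastic was the highest of the 5 plastic arrays for MGAT4C, TRPC4, IDO1, PMEL and ADAMTS19. With the array code as a block, the EC-ES differences of the 7 genes ran from -3.77 to -2.70 on plastic and from -3.50 to -1.26 on feeders. Within the earlier codes (2 ES against 2 EC feeder arrays) the difference on feeders was -1.86 for MGAT4C, -1.95 for TRPC4 and -3.61 for IDO1. Within the later codes (4 ES arrays against 833KE alone) it was -3.53 for MGAT4C, -3.80 for TRPC4 and -1.31 for IDO1. All 7 genes were lower in EC within either set of codes. All EC arrays on plastic have later codes. In these bulk samples fewer cells of a type and less RNA per cell cannot be told apart.

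**Figure D2:**
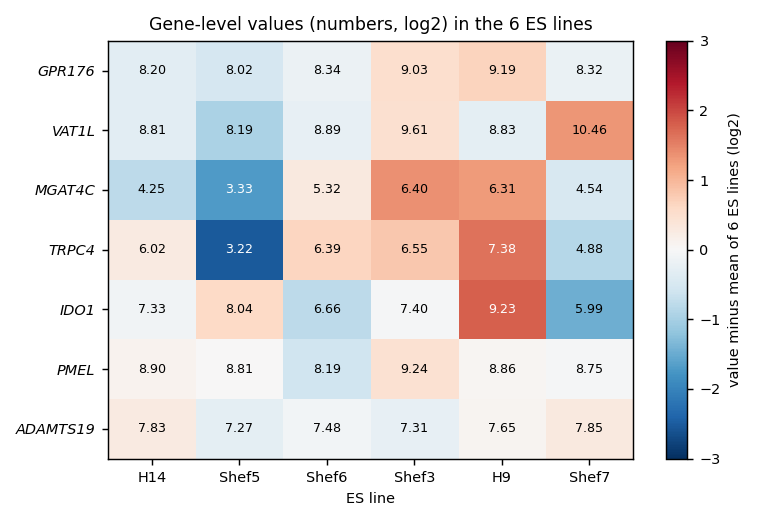
Gene-level values (printed, log2) of the 7 genes in the 6 ES lines, coloured by the value minus the gene's mean over the lines (log2). TRPC4, MGAT4C and IDO1 change most from line to line, and PMEL and ADAMTS19 least.

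The ES lines themselves differed strongly in some of these genes. The SD over the 6 lines was above that of 99.8% of all clusters for TRPC4, 99.5% for MGAT4C, 99.3% for IDO1 and 96.1% for VAT1L, against 81.1% for GPR176, 60.6% for PMEL and 39.9% for ADAMTS19. Shef5 was the lowest ES line for GPR176, VAT1L, MGAT4C, TRPC4 and ADAMTS19 but the second highest for IDO1. H9 was the highest for GPR176, TRPC4 and IDO1. Over the 6 lines MGAT4C followed GPR176 (r = 0.94) and TRPC4 (r = 0.88), GPR176 followed TRPC4 (r = 0.78), and VAT1L ran against IDO1 (r = -0.64). These correlations describe 6 points that share their arrays and carry no test. Shef5 and H14, the ES arrays with earlier codes, were the lowest for GPR176, VAT1L and MGAT4C. They also had the highest fibroblast marker means of the ES lines, 5.91 and 5.45 against 4.78 to 5.17 in the others. The part of array code and of fibroblast RNA in this spread was not tested.

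**Figure D3:**
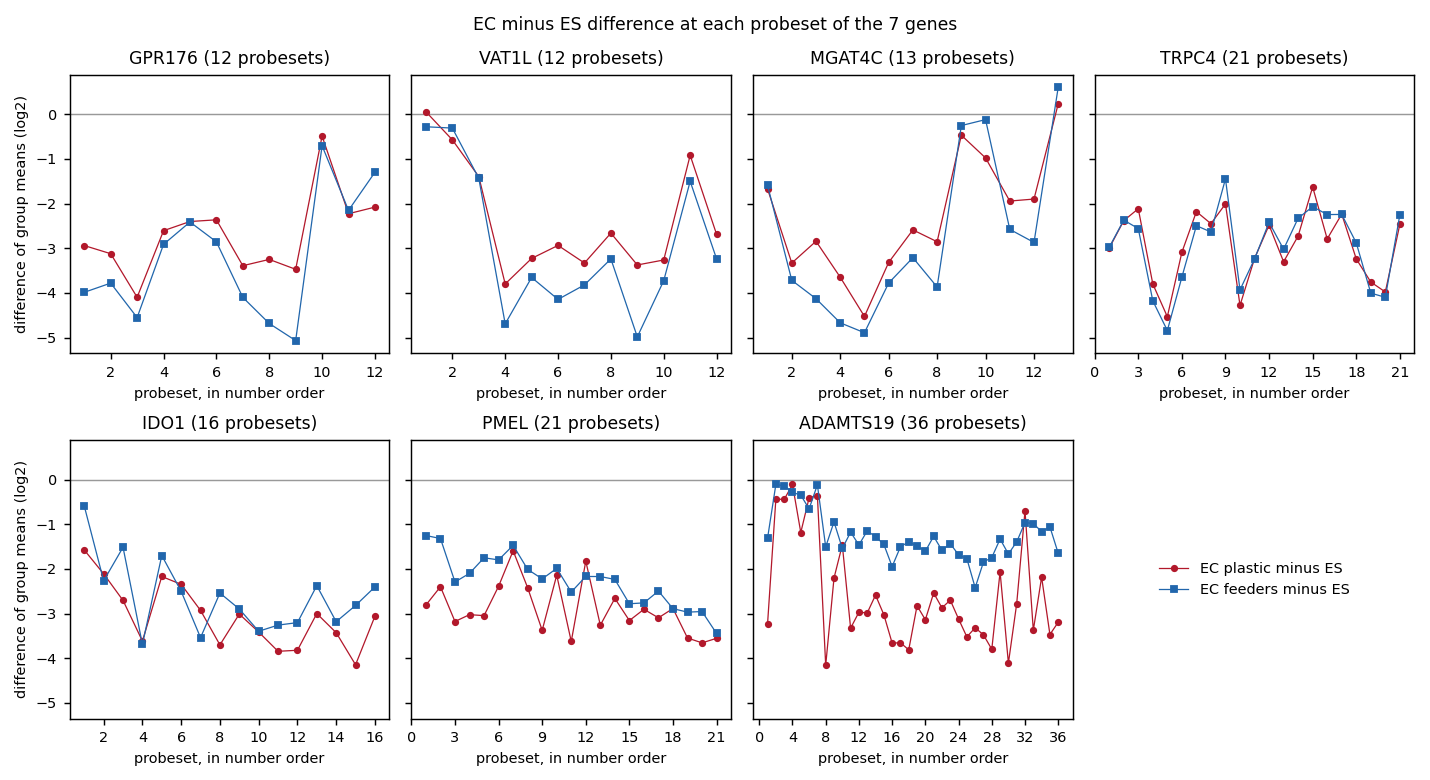
Difference of group means (log2, y axis) at each probeset of the 7 genes, in the order of probeset numbers (x axis), for EC on plastic minus ES (red circles) and EC on feeders minus ES (blue squares). Nearly all points lie below 0. Both differences are smaller than 1 at low-numbered probesets of VAT1L (1 and 2) and ADAMTS19 (2, 3, 4, 6 and 7). The same holds for number 32 of ADAMTS19, number 10 of GPR176 and numbers 9, 10 and 13 of MGAT4C.

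The exon-level values showed how far the difference extended along each gene. Of the 131 probesets, 129 had a lower mean in EC on plastic than in ES and 130 in EC on feeders, with median differences of -2.94 and -2.25. In 69 the lowest ES array was above all 8 EC arrays (10 in GPR176, 8 in VAT1L, 0 in MGAT4C, 8 in TRPC4, 6 in IDO1, 17 in PMEL and 20 in ADAMTS19), a pattern found in 0.35% of all probesets. Probesets of a gene share its transcripts and are not replicates, and the share is for scale only. All 21 probesets of TRPC4, all 16 of IDO1 and all 21 of PMEL differed by more than 1 in at least one comparison. The brightest PMEL probeset, number 15 of its gene in number order, had means of 11.01 in ES, 7.85 in EC on plastic and 8.23 in EC on feeders. The brightest TRPC4 probeset, number 21, had 7.34, 4.88 and 5.09.

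VAT1L and ADAMTS19 held probesets that were bright in every group and differed by less than 1 between ES and EC. In VAT1L the first probeset in number order had means of 8.91 in ES, 8.96 in EC on plastic and 8.63 in EC on feeders. The next had 8.46, 7.89 and 8.15, with every ES array above the EC arrays on plastic. From the fourth on, VAT1L differed by as much as -3.80 on plastic and -4.99 on feeders, with 11.11, 7.85 and 7.39 at its brightest probeset (number 10). In ADAMTS19, 6 probesets (numbers 2, 3, 4, 6, 7 and 32) differed by less than 1 in both comparisons, with ES means of 7.44 to 10.82 and EC means on plastic of 6.998 to 10.12. The 30 others had a median difference of -3.13 on plastic and -1.46 on feeders, the largest on plastic at number 8 (7.31 in ES, 3.15 in EC on plastic, 5.81 in EC on feeders). All 36 ADAMTS19 probesets had a lower mean in EC than in ES, on plastic and on feeders. Where the probesets of VAT1L and ADAMTS19 lie in the transcripts was not analysed here.

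In GPR176 the largest difference on feeders was at number 9 (10.70 in ES, 7.23 in EC on plastic, 5.63 in EC on feeders). Only the dim number 10 differed by less than 1 in both comparisons (2.35, 1.86 and 1.64). In MGAT4C the largest was at number 5 (8.70 in ES, 4.17 in EC on plastic, 3.81 in EC on feeders). Numbers 9, 10 and 13 of MGAT4C differed by less than 1 in both comparisons, at 1.32 to 3.37 in ES, which is dim. In IDO1 the largest difference on plastic was at number 15 (8.96 in ES, 4.81 in EC on plastic, 6.14 in EC on feeders) and the smallest at number 1 (3.54, 1.96 and 2.95).

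Growth condition within the EC lines is a contrast the selection did not name, but it uses the same EC arrays. A gene selected for low values on plastic can lie higher on feeders through that choice, and ADAMTS19 was lower in EC by a larger difference on plastic than on feeders. The contrast was tested in NTERA2, 2102Ep and 833KE with the line as a block (limma, Benjamini-Hochberg over all clusters). No cluster passed an adjusted p of 0.05 (0.0% of 22011, with 3276 at an unadjusted p below 0.05), so none of the 7 genes passed. With dim clusters left out limma called 11 clusters, and without the replicate block 1.

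**Figure D4:**
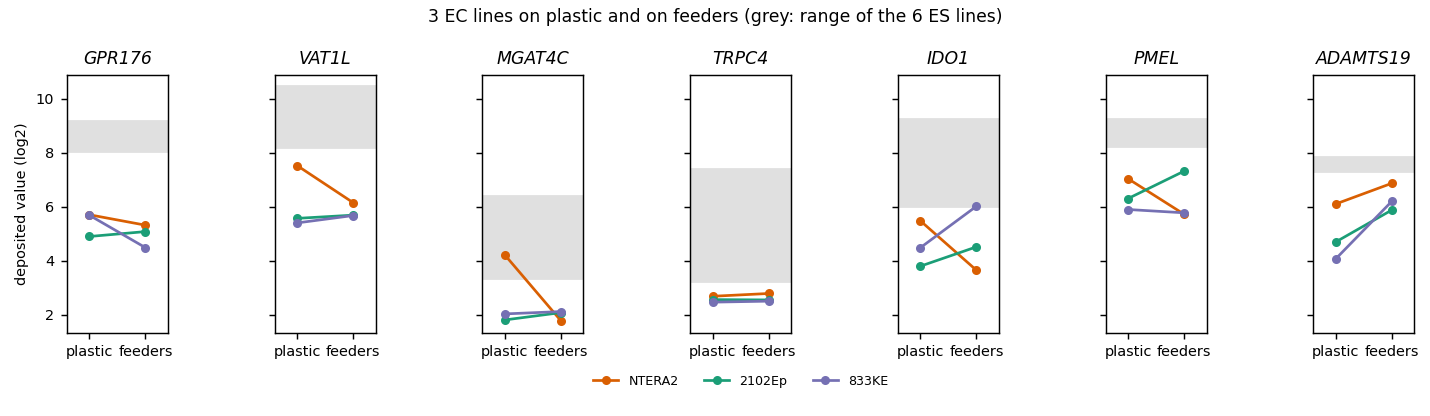
Gene-level values (log2, y axis) of the 3 EC lines grown both ways, joined from plastic to feeders (x axis), with the range of the 6 ES lines in grey. ADAMTS19 is higher on feeders in 3 of 3 lines, and NTERA2 is lower on feeders for GPR176, VAT1L, MGAT4C, IDO1 and PMEL.

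ADAMTS19 had the largest mean difference of the 7 genes. On feeders minus plastic it was 0.77 in NTERA2, 1.18 in 2102Ep and 2.13 in 833KE, higher in 3 of 3 lines, which 20.6% of all clusters were too. The mean of 1.36 ± 0.29 (SE), 2.57-fold, had an unadjusted p of 0.00493 and an adjusted p of 0.242 in limma (0.159 to 0.597 over the alternatives), and so did not pass. At exon level, 25 of its 36 probesets were higher on feeders in all 3 lines, against 17.8% of all probesets, with a median of 1.27. These probesets share the gene's transcripts and arrays and are not replicates. Their count adds no separate support, and the share is for scale only. The smallest adjusted p among the probesets in limma was 0.354, and no probeset of any gene passed (0.0% of 287329, with 36568 at an unadjusted p below 0.05).

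Of 10 measured fibroblast clusters 9 were higher on feeders, with list means of 4.76 to 5.08 in NTERA2, 4.85 to 5.16 in 2102Ep and 4.80 to 4.97 in 833KE from plastic to feeders, none of them called. DCN, LUM, POSTN and FAP lay below the 25th percentile on all 14 arrays, and COL1A1, COL1A2, COL3A1, COL6A3, PDGFRB and THY1 on none. Over all EC arrays, THY1 averaged 9.80 on plastic (n = 5) and 10.16 on feeders (n = 3), and COL1A2 averaged 6.80 and 7.67. These means are not paired, since NCCIT and TERA1 grew on plastic only. In NTERA2 and 2102Ep the feeder array has an earlier code than the plastic array, and in 833KE both codes are later. The parts of fibroblast RNA and of the array code in the ADAMTS19 difference were not tested.

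The other 6 genes had no common direction. NTERA2 was lower on feeders by the values -0.39 for GPR176, -1.37 for VAT1L, -2.44 for MGAT4C, -1.83 for IDO1 and -1.32 for PMEL, and higher only for TRPC4 (0.10) and ADAMTS19. 2102Ep was higher on feeders for 6 of the 7 genes, by 0.12 for VAT1L up to 1.02 for PMEL apart from ADAMTS19, and was at -0.012 for TRPC4. 833KE was at 1.54 for IDO1 and -1.20 for GPR176. The line means were -0.47 ± 0.29 (SE) for GPR176, -0.33 ± 0.36 for VAT1L, -0.69 ± 0.56 for MGAT4C, 0.043 ± 0.16 for TRPC4, 0.14 ± 0.64 for IDO1 and -0.14 ± 0.44 for PMEL, with adjusted p from 0.505 to 0.942 in limma. A gene that did not pass is not shown to be equal in both conditions.

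**Figure D5:**
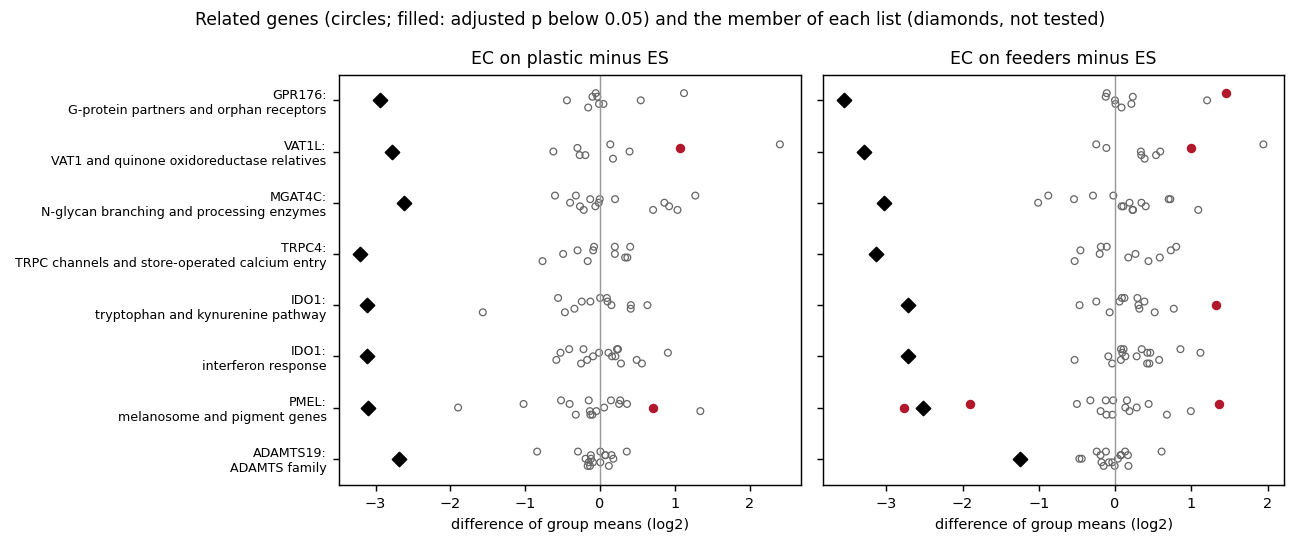
EC minus ES differences of group means (log2, x axis) for genes of related function, in 8 lists (y axis), on plastic (left) and on feeders (right). Circles are single clusters, filled where limma's adjusted p is below 0.05, and diamonds are the 7 genes themselves, shown without a test. Most relatives lie near 0, with EDNRB and KIT of the melanosome list at -2.78 and -1.90 on feeders. CRYZ of the VAT1L list lies at 2.41 on plastic and 1.95 on feeders, uncalled.

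Few relatives of these genes were called, and in either direction. In 8 lists of pathway and family members, 107 genes were measured with 108 clusters. In EC on plastic against ES, 2 were called higher and 0 lower, where 3.26% of all clusters were called higher and 1.34% lower. In EC on feeders against ES, 4 were higher and 2 lower, against 1.56% and 0.731% of all clusters, and none was called between feeders and plastic. The list medians lay between -0.10 and 0.14 on plastic and between -0.037 and 0.39 on feeders, beside medians over all clusters of 0.0046 and 0.042. Apart from CRYZL1 on plastic, each of these calls was lost with at least 1 single array left out, with limma's adjusted p then between 0.0508 and 0.161.

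Among 9 measured G-protein partners and orphan receptors beside GPR176, the orphan receptor GPR19 was higher in EC on feeders (10.09 ± 0.41, n = 3) than in ES (8.64 ± 0.31, n = 6), by 1.45 ± 0.23 (SE, limma adjusted p = 0.0147). On plastic its difference was 1.12 (adjusted p = 0.0706, limma). RGS16, a regulator of G-protein signalling, had the smallest p between feeders and plastic (0.95, limma adjusted p = 0.424). Among 11 TRPC channels and store-operated calcium genes beside TRPC4 none was called. The calcium channel subunit ORAI1 had the smallest p, with 0.40 on plastic and 0.80 on feeders (limma adjusted p = 0.216 and 0.146). The closest relative measured, TRPC5, was at 0.37 and 0.17. TRPC6 was at 0.57 in feeders minus plastic (limma adjusted p = 0.280).

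Among 9 relatives of VAT1L, the quinone oxidoreductase-like CRYZL1 was higher in EC on plastic by 1.08 ± 0.17 (SE) and on feeders by 0.998 ± 0.22 (limma adjusted p = 0.00655 and 0.0447). VAT1 itself was at -0.20 and 0.34, uncalled. CRYZ was at 2.41 and 1.95, uncalled too (limma adjusted p = 0.172 and 0.435). It differed among the ES lines, with 3.09 in H9 and 2.69 in Shef7 against 6.46 to 7.83 in the others. TP53I3, a quinone oxidoreductase induced by p53, was at 0.91 in feeders minus plastic (limma adjusted p = 0.237). Among 15 enzymes of N-glycan branching and processing none was called, and MAN1C1, a mannosidase of glycan trimming, had the smallest p (1.04 and 1.09, limma adjusted p = 0.0544 and 0.0775). MGAT4A, the enzyme of the same branching family, was at 1.27 on plastic and -0.023 on feeders, and at -0.90 in feeders minus plastic (limma adjusted p = 0.237), uncalled in all 3.

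IDO1 had a list on tryptophan and one on interferon. Of 13 tryptophan and kynurenine genes, WARS1, the tryptophanyl-tRNA synthetase, was higher in EC on feeders (10.75 ± 0.34, n = 3) than in ES (9.42 ± 0.40, n = 6), by 1.33 ± 0.25 (SE, limma adjusted p = 0.0277). SLC7A5, a transporter of large neutral amino acids, was at -1.57 in EC on plastic minus ES and 1.92 in feeders minus plastic, uncalled in both (limma adjusted p = 0.0805 and 0.237). IDO2, beside IDO1 on chromosome 8, was at 0.0015 and 0.12. Of 17 interferon response genes none was called, and JAK1 came nearest with 0.91 and 1.12 (limma adjusted p = 0.0713 and 0.0554). SOCS1, a feedback inhibitor of that signalling, was at 0.99 in feeders minus plastic (limma adjusted p = 0.237).

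Of 17 melanosome and pigment genes beside PMEL, the receptors EDNRB and KIT were lower in EC on feeders than in ES, by the differences -2.78 ± 0.48 (SE) and -1.90 ± 0.34 (limma adjusted p = 0.0195 and 0.0212). BACE2, a protease that cuts PMEL, was higher by 1.37 ± 0.26 (adjusted p = 0.0289, limma). MITF, the master regulator of melanocytes, was higher in EC on plastic (5.23 ± 0.36, n = 5) than in ES (4.52 ± 0.080, n = 6), by 0.71 ± 0.16 (SE, limma adjusted p = 0.0272). On feeders MITF differed from ES by 0.13 (limma adjusted p = 0.779). On plastic the differences of EDNRB, KIT and BACE2 from ES were -1.90, -1.02 and 0.36, uncalled (limma adjusted p = 0.169, 0.176 and 0.725). KIT was at -1.08 in feeders minus plastic (limma adjusted p = 0.293). The mean of 6 melanocyte markers was 4.07 to 4.42 in ES, 4.26 to 4.68 in EC on plastic and 4.16 to 4.59 in EC on feeders. Of these MLANA and SLC45A2 lay below the 25th percentile on all 14 arrays, TYRP1 on 13, MITF on 5 and OCA2 on 2. The ES mean of MITF was close to that percentile, which was between 4.51 and 4.59.

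Of 16 ADAMTS family members beside ADAMTS19 none was called in any comparison. ADAMTS8 had the smallest p on plastic (-0.29, limma adjusted p = 0.213), ADAMTS15 on feeders (0.61, adjusted p = 0.133) and ADAMTS12 between feeders and plastic (-0.80, adjusted p = 0.295). ADAMTS18, the nearest measured gene before VAT1L on its chromosome, was at -0.15 and -0.082.

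Among markers of other cell types, the endoderm genes GATA6 and SOX17 were lower in EC on plastic, with differences of -0.77 and -0.65 (limma adjusted p = 0.00599 and 0.0273), and CXCR4 on feeders, with -1.33 (adjusted p = 0.0318). GATA6 and SOX17 were not called on feeders, nor was CXCR4 on plastic. Over all clusters 1.34% were called lower on plastic and 0.731% on feeders. The mean of 6 endoderm clusters was 5.88 to 6.45 in ES. It was 5.28 to 5.62 in EC on plastic and 5.38 to 5.82 in EC on feeders. By this mean the ES lines were above all EC arrays. GATA4 did not share this on feeders, with means of 6.91 in ES, 6.48 in EC on plastic and 6.93 in EC on feeders. AFP lay below the 25th percentile on 13 arrays. Of the fibroblast markers COL1A1 was lower in EC on plastic (-1.65, limma adjusted p = 0.0188), with list means of 4.78 to 5.91 in ES, 4.29 to 5.11 in EC on plastic and 4.97 to 5.16 in EC on feeders. Trophoblast and neural lists had no call. SOX17 lost its call without Shef5, Shef7, 2102Ep or TERA1 (limma adjusted p = 0.0551 to 0.0611), and CXCR4 without Shef6, Shef3, H9, Shef7, 2102Ep or 833KE (0.0568 to 0.117). The part of other cell types in the differences of the 7 genes was not tested.

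Of 14 measured neighbours of the 7 genes on the chromosome, 2 were called, EIF2AK4 in both EC-ES comparisons and NTS on plastic only. Over all clusters 1.34% were called lower and 3.26% higher on plastic, and 0.731% lower and 1.56% higher on feeders. A neighbour is the nearest gene on either side with a named transcript cluster, so genes without such a cluster can lie between. EIF2AK4, the kinase that senses amino acid shortage, lies beside GPR176 and was lower in EC, with differences of -0.88 on plastic and -1.005 on feeders (limma adjusted p = 0.0271 and 0.0426). The call on plastic was lost without Shef3, Shef7, 2102Ep, 833KE or TERA1 (adjusted p = 0.0508 to 0.0696) and that on feeders without H14, Shef5, Shef6, Shef3, Shef7, 2102Ep or 833KE (0.0514 to 0.129). NTS, the neurotensin precursor beside MGAT4C, was 8.82 ± 1.31 (SD, n = 6) in ES, 4.59 ± 2.002 (SD, n = 5) in EC on plastic and 6.10 ± 1.70 (SD, n = 3) on feeders. Its differences were -4.23 (adjusted p = 0.0185, limma) and -2.72 (adjusted p = 0.128). The other 12 neighbours were not called. CHSY3, the nearest measured gene after ADAMTS19, was at -0.042 on plastic and 0.72 on feeders, and IDO2 is described above.

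By Pearson's r over the 14 arrays, each of the 7 genes was set beside the 3 clusters most like it. The second value in brackets is r after the group means were removed. The first includes the EC-ES difference the genes were chosen by. MGAT4C was most like the WNT antagonist SFRP1 (0.96, 0.88), then BNC2 (0.95, 0.83) and PRKCB (0.94, 0.81). PMEL was most like GDPD2 (0.96, 0.88), the receptor kinase AXL (0.96, 0.84) and AJUBA (0.95, 0.70). VAT1L was most like CADM4 (0.95, 0.81), SUFU (0.94, 0.92) and SEMA5A (0.92, 0.72). ADAMTS19 was most like CAMKK2 (0.96, 0.73), DDAH2 (0.95, 0.57) and LRRC20 (0.94, 0.69). GPR176 was most like ERCC2 (0.93, 0.60), RAB3C (0.92, 0.50) and FREM2 (0.92, 0.57). TRPC4 was most like NTM (0.93, 0.78), CCDC177 (0.92, 0.72) and TACR3 (0.91, 0.71). IDO1 was most like CCN2 (0.93, 0.82), ERCC2 (0.91, 0.63) and GRHL2 (0.90, 0.64). Among the 7 genes, MGAT4C and TRPC4 had the highest r over the 14 arrays (0.92, and 0.72 without the group means). These values are descriptions over arrays shared by both genes.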

How the data were processed

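RNA of 14 cell cultures was measured on exon arrays. The deposited gene-level and exon-level values are log2 values, made by the authors with RMA and Affymetrix Expression Console, and limma is named too, per the submitters' processing notes. Versions, RMA settings, genome build and log base are not given in the sources used here, and a log2 scale was inferred from the values. Groups came from the sample titles. Symbols came from the platform annotation, updated through RefSeq. Nothing was renormalised or filtered in the main fits.

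Linear models were fitted with limma 3.58.1 (R 4.3.3; moderated two-sided tests by eBayes) over all clusters or probesets, with Benjamini-Hochberg adjustment and a threshold of 0.05. EC on feeders against plastic used the same 3 lines with the line as a block, since the titles name the same lines. The series' design text instead calls the 3 feeder-grown EC lines additional, and every paired value rests on the titles. After each condition's mean was removed, the feeder and plastic arrays of a line correlated across clusters with r of 0.51 (NTERA2), 0.41 (2102Ep), 0.34 (833KE). Scripts were tested on simulated data. Figures were drawn with matplotlib 3.10.9.

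The 7 genes and all lists were chosen with earlier results of these data known. Named list genes are up to 3 called genes of the largest difference per list and EC-ES comparison, otherwise the one of smallest p. A few closest relatives (TRPC5, VAT1) and CRYZ, of large difference, were chosen after their values were seen. Alternatives were quantile normalisation, a filter on dim features, another eBayes prior, array codes as a block, other ways to pool the spread, and leaving out each array or line.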

Additional observations from a re-analysis of the deposited data

Results flagged for a closer look

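In the 14 groups formed by the 7 genes in ES lines and in EC lines on plastic, 1 value lay far from the others. MGAT4C in NTERA2 on plastic was at 4.21, while the 4 other EC lines on plastic were between 1.80 and 2.04. The gap to the nearest of them made up 0.900 of the group's range. For normally distributed values, chance sets apart about 1 in 20 groups by this measure, a rate that was not measured in these data. On feeders the same line was at 1.77.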

How the results depend on the processing

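The EC minus ES differences of the 7 genes kept their sign under every alternative run, and 188 values moved by less than the spread between lines. The 1 exception was GPR176 on feeders, at -2.84 as the median of its probesets. Between feeders and plastic, where no gene was called, 10 values turned sign and 58 did not. VAT1L was at 0.27 with the array code as a block and 0.20 without NTERA2, and MGAT4C at 0.087 and 0.18. IDO1 was at -0.15 without 2102Ep and -0.56 without 833KE. PMEL was at 0.57 with the spread of all 14 arrays, a fit that sets the 3 feeder arrays against all 5 plastic arrays without pairing. PMEL was at 0.45 without NTERA2 and 0.32 as the median of its probesets, and TRPC4 at -0.048 as the median of its probesets. The cause was not tested.

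Counts over all clusters moved more. Between feeders and plastic 0 became 11 with dim clusters left out, and 1 without the replicate block of the paired lines. For EC on plastic against ES, 1012 clusters were called (718 higher, 294 lower), 578 higher and 439 lower after quantile normalisation. Leaving out 1 array gave 587 to 1257, below 1012 by over 1.5 times without H14 (656), Shef6 (634), Shef3 (587), Shef7 (618), 2102Ep (604) or 833KE (658). For EC on feeders against ES, 504 were called (343 higher, 161 lower), 334 higher and 245 lower after quantile normalisation, and 306 with the spread of all 14 arrays. Leaving out 1 array gave 167 to 594, with 235 without Shef6, 167 without Shef3, 260 without Shef7 and 193 without 2102Ep. Of the related genes, 2 called on plastic became 1 to 10 with 1 array left out (10 without NCCIT, 7 without NTERA2, and 1 without H14, Shef6, Shef3, 2102Ep, 833KE or TERA1) and 5 with the 3 lines of both conditions. On feeders 6 became 1 with the spread of all 14 arrays and 2 to 7 with 1 array left out, among them 3 without Shef6 or 833KE and 2 without Shef3 or 2102Ep.

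Among single related genes, CRYZL1 on plastic kept its call throughout. Calls were lost in 2 of 14 alternatives for GPR19 (0.0562 as limma's adjusted p without 2102Ep) and EDNRB (0.0563 without 833KE), and in 4 for KIT (0.0515 without Shef6, 0.0553 without Shef3, 0.0616 without 833KE). They were lost in 6 for WARS1 (0.0508 to 0.105 without Shef3, H9, 2102Ep or 833KE), in 9 for BACE2 (0.0512 to 0.0723 without Shef6, Shef3, H9, Shef7 or any of the 3 EC lines) and in 9 for CRYZL1 on feeders (0.0535 to 0.161 without any ES line, NTERA2 or 2102Ep). MITF lost its call in 9 of 17, with limma's adjusted p of 0.0542 to 0.0715 without H14, Shef5, Shef6, Shef3, 2102Ep, 833KE or TERA1. Of the markers and neighbours, GATA6 kept its call throughout, COL1A1 lost it with the 3 lines of both conditions (limma adjusted p = 0.0739), and NTS lost it there (0.0727) and with the array code as a block (0.0595). Array number and dim signal limit what can be called.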
